A study of Caenorhabditis elegans with 10 samples.

Results

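Ligand-gated ion channel subunits are described here across 5 strains of the nematode Caenorhabditis elegans. The members were chosen by gene symbol: every gene named acr-, lgc-, glr- or nmr- followed by a number, together with unc-29, unc-38, unc-63, unc-49 and exp-1. This rule found 92 genes among the 46907 genes of the count tables. Of these, 65 had 10 or more counts in 2 or more of the 10 libraries and are described by their levels, and the other 27 are described by what could be counted on them.

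The libraries were RNA-seq libraries of untreated whole animals, 2 per strain. R9QT102I animals carried the unc-104 change R9Q and the second unc-104 change T102I. R9QG265R animals carried R9Q and the second unc-104 change G265R. R9Qunc-16 animals carried unc-104(R9Q) and a mutation in unc-16 whose allele the labels do not name. R9Q animals carried unc-104(R9Q) alone, and WT animals carried none of these changes. All strains but WT thus share R9Q, and the first 3 are double mutants set against R9Q. The UNC-104 kinesin carries synaptic vesicle precursors down the axon. UNC-16 is a scaffold protein of the JNK pathway and a partner of kinesin. The stated purpose of the libraries was to measure unc-104 mRNA, and the series' title calls the second changes suppressors of a pathogenic kinesin mutation. The sources used here give neither the age or stage of the animals nor the number pooled per library. The labels do not say whether both libraries of a strain had their own culture, and p-values therefore measure only the spread between these libraries, which may be technical.

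Ligand-gated ion channels open when a transmitter binds, and so turn a chemical signal at a synapse into a current. The acr, lgc and unc genes and exp-1 code for subunits of the pentameric cys-loop family, which holds acetylcholine, GABA and monoamine receptors with either cation or anion pores. The glr and nmr genes code for subunits of tetrameric glutamate receptors of the AMPA/kainate and NMDA types. In C. elegans these receptors act at neuromuscular junctions and between neurons, downstream of the synaptic vesicles that UNC-104 delivers. In whole-animal RNA, fewer cells of a type and less RNA per cell cannot be told apart.

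What could be counted on a subunit gene depended first on its transcripts. The deposited counting was done by transcript and left out reads lying in more than 1 transcript, so only exon bases that belong to a single transcript could collect counts. Of the 92 genes, 57 had 1 transcript in the tables, and 53 of these were described. Of the 35 genes with several transcripts, 12 were described. The median length of exon bases lying in 1 transcript only was 1615 among described genes and 91 among the others, over the 84 genes whose transcripts all had exons in the annotation. Under 500 such bases were left in 17 of 21 genes not described, against 4 of 63 described genes. The 11 genes with 0 counts in every library all had several transcripts, and a count of 0 on such a gene does not measure its mRNA.

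Some of the best-known receptors of the worm fell in this group. unc-29, which codes for an essential subunit of the levamisole-sensitive acetylcholine receptor of body wall muscle (WBGene00006765, chromosome I, 8897632 to 8901435, ce11), had 1 count in the 10 libraries together. unc-49, which codes for the GABA receptor of body wall muscle (WBGene00006784, chromosome III, 10520762 to 10532705), had 33 transcripts in the tables and 5 counts in all. nmr-1, the partner of nmr-2 in NMDA-type receptors, and acr-8 had 0 counts. acr-8 kept 38 exon bases of its own and acr-23, the betaine receptor gene, kept 103. The annotation lacked exons for some transcripts of unc-29, unc-49 and nmr-1, so how much of each could collect counts is not known in full. Nothing is said here about the level of these genes in any strain. By role, counts sufficed for 6 of 8 levamisole-type subunits, 8 of 10 of the ACR-16 group, 3 of 6 of the DEG-3 group, 5 of 6 GABA receptor subunits, 3 of 3 channels listed as amine-gated (lgc-50, lgc-53 and lgc-55), 34 of 49 other lgc genes, 5 of 8 AMPA/kainate-type subunits and 1 of 2 NMDA-type subunits.

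**Figure D1:**
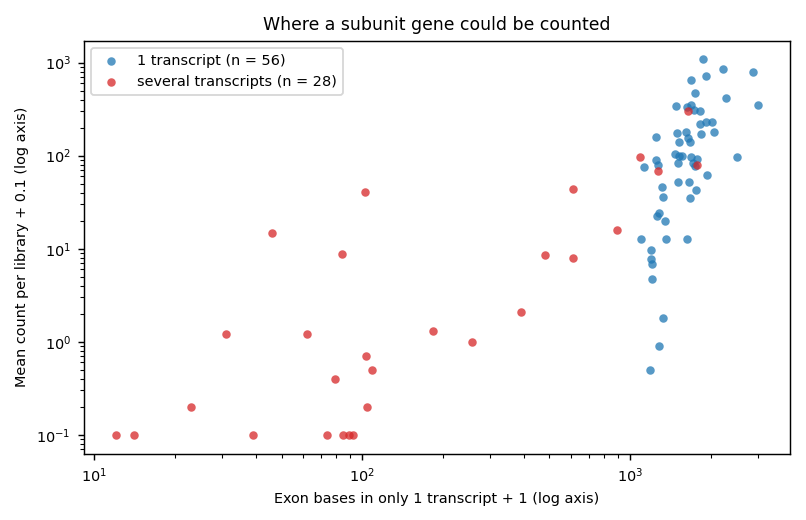
Mean count per library plus 0.1 (log axis) against the exon bases that lie in only 1 transcript plus 1 (log axis), for the 84 subunit genes with complete exons, with 56 genes of 1 transcript in blue and 28 genes of several transcripts in red. Genes with several transcripts and few bases of their own lie at the left and mostly near 0 counts.

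The minimum of 10 counts in 2 libraries divided few genes closely. No gene had 10 counts in exactly 2 libraries. Just inside, acr-24, lgc-15, lgc-16 and lgc-47 reached 10 counts in 3 libraries, with 84, 76, 67 and 78 counts in all. Just outside, lgc-17 and lgc-7 reached it in 1 library, with 46 and 17 counts in all. At the other end, 50 of the 65 described genes had 10 or more counts in all 10 libraries. The rule on low counts and the filter of the test kept the same 65 genes, and a gene that passed only through the strain where it was high would be among them.

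Between 6239272 and 7160785 reads per library were assigned to a transcript, and a count of 0 allowed up to 3 counts, or 0.419 to 0.481 per 1e6 assigned reads. Levels are given in CPM, counts per 1e6 assigned reads after scaling by TMM factors. These floors and the counting intervals below cover counting error only. In 3 libraries, 1 of each double mutant (R9QT102I replicate 1, R9QG265R replicate 2 and R9Qunc-16 replicate 2), the mitochondrial genome held 0.0194 to 0.0238% of assigned counts, against 1.58 to 5.51% in the other 7. These 3 libraries stand apart from the rest. No read was counted on unc-104 in any library, and the unc-16 gene had 0 to 42 counts, so neither gene checks the strain labels. Of the neuronal markers, 13 of 15 pan-neuronal genes had counts (unc-10 and egl-3 were at 0), but only 8 had enough to be tested. unc-31, unc-13, rab-3, unc-33 and unc-119 averaged 0.2 to 1.3 counts per library. Summed levels of the 15 genes were 995 and 1120 CPM in R9QT102I, 1120 and 928 in R9QG265R, and 1030 and 1010 in R9Qunc-16. They were 1300 and 1210 CPM in R9Q, and 1300 and 1280 in WT. Of these sums, snb-1 alone gave 455 to 940 CPM. Of the 10 body wall muscle genes, 4 were at 0 (unc-15, unc-22, hlh-1 and tni-3), and the sum ran between 2740 and 7590 CPM. Another 4 (unc-54, lev-11, unc-89 and mup-2) averaged 0.2 to 4.8 counts per library, so the sum was nearly all myo-3 and unc-27. These 2 differed in direction in R9Qunc-16, with myo-3 at 6240 and 1500 CPM and unc-27 at 1340 and 1790.

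Set per kilobase of exon in 1 transcript only, the most abundant subunits were lgc genes, and the mean over the 10 libraries spanned 0.825 to 86.7 CPM per kilobase over the 59 described genes with 500 or more such bases. lgc-39, which codes for a channel opened by both acetylcholine and monoamines, led at 86.7 CPM per kilobase. lgc-40, a chloride channel opened by serotonin, choline and acetylcholine, followed at 58.0, lgc-50, a serotonin-gated cation channel, at 57.1, and lgc-46, an acetylcholine-gated anion channel of presynaptic sites, at 55.5. The leading glutamate receptor subunit was glr-5 at 41.2, and the leading genes listed as nicotinic subunits were unc-38 at 30.7 and unc-63 at 30.1. lgc-11, which is listed with the other lgc genes, was at 34.1. acr-16, the subunit of the nicotine-sensitive muscle receptor, was at 17.8 and glr-1, the AMPA-type subunit of the command interneurons, at 17.2. The lowest level was that of lgc-16. Of the 92 genes, 27 lie on the X chromosome (29.3%), as do 21 of the 65 described.

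No subunit gene was called in any of the 4 comparisons when all 10 libraries were fitted together. A gene is called where its p-value from edgeR's quasi-likelihood test, adjusted by Benjamini-Hochberg over the 12267 genes tested, lies under 0.05. In R9QT102I against R9Q 0 of 65 members were called, with 0.562% of all genes called (69 genes). In R9QG265R against R9Q 0 of 65 were called, with 0.0% of all genes. In R9Qunc-16 against R9Q 0 of 65 were called, with 0.668% of all genes (82 genes). In R9Q against WT 0 of 65 were called, with 0.31% of all genes (38 genes). At an unadjusted p under 0.05 there were 3, 0, 9 and 1 members, against 11.1, 8.71, 19.1 and 7.67% of all genes in the same order. With so few genes called in all, 0 calls among 65 members is near the background.

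Other fits called a few members or many, along with many more genes. The counts are given in the same order of comparisons. The DESeq2 Wald test called 0, 0, 2 and 0 of 65 members, with 3.71, 1.87, 9.2 and 2.05% of all genes. Without the filter on low counts edgeR's test called 0, 0, 1 and 0 of 81 members, with 3.16, 1.83, 5.03 and 1.28% of all genes. With a stricter filter, which kept genes at 5 or more CPM in 4 or more libraries, it called 0 of 50 members in each comparison, with 1.16, 0, 1.59 and 0.68% of all genes. With a term for the 3 libraries that stand apart it called 0, 0, 2 and 0 of 65 members, with 4.02, 1.03, 12.5 and 1.83% of all genes. With these libraries left out it called 17, 19, 27 and 15 of 66 members, with 36, 33.9, 50.5 and 32.5% of all genes. On the 4 libraries of a comparison alone it called 0 of 63, 0 of 61, 0 of 63 and 15 of 62 members, with 7.29, 0.0, 0.0 and 37.7% of all genes.

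Fold changes are given on the log2 scale, with the strain named first on top. Between 56 and 62 of the 65 members lay within 1 log2 unit of 0 in each comparison, and the median standard error of a member was 0.43 to 0.44. More members lay below 0 than above it in every comparison, namely 45 of 65 in R9QT102I against R9Q, 45 in R9QG265R against R9Q, 48 in R9Qunc-16 against R9Q and 39 in R9Q against WT. Over all genes tested, 50.3, 48.9, 52.4 and 49.7% lay below 0. The median member was at -0.105, -0.19, -0.395 and -0.105 in these comparisons, and the median of all genes at -0.005, 0.014, -0.045 and 0.001. The first 3 comparisons share the R9Q libraries. With a term for the 3 libraries that stand apart, 34, 33, 39 and 39 of 65 members lay below 0, with medians of -0.017, -0.029, -0.146 and -0.105. Without those 3 libraries the numbers were 42, 39, 39 and 40 of 66, and with DESeq2 size factors 46, 44, 42 and 38 of 65.

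**Figure D2:**
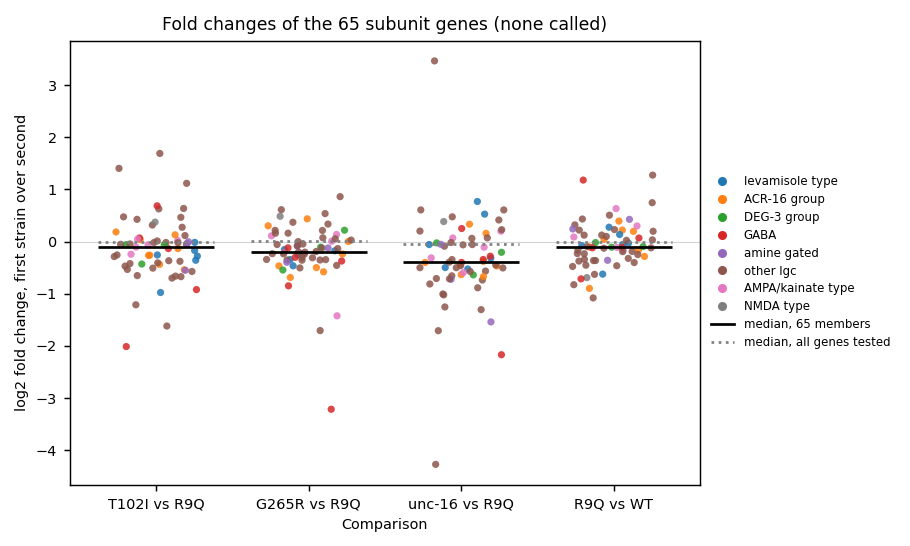
Log2 fold change (first strain over second) of each of the 65 described subunit genes in the 4 comparisons, coloured by role, with the median of the 65 genes (black line) and of all 12267 genes tested (grey dotted line); T102I, G265R and unc-16 stand for R9QT102I, R9QG265R and R9Qunc-16. Most points lie within 1 unit of 0, and none was called.

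Levamisole-type subunits form the acetylcholine receptors of body wall muscle and of motor neurons. None of the 6 described members was called in any comparison. All 6 lay below 0 in R9QT102I and in R9QG265R against R9Q, as did 4 in R9Qunc-16 against R9Q and 4 in R9Q against WT, with medians of -0.27, -0.24, -0.19 and -0.04. unc-38, an alpha-type subunit of both receptors (WBGene00006774, chromosome I, 4897620 to 4900974), was at 41.9 and 52.9 CPM in R9QT102I, 56.4 and 40.3 in R9QG265R, 54.4 and 37.8 in R9Qunc-16, 56.4 and 58.6 in R9Q, and 61.7 and 55.8 in WT. In R9QT102I and R9Qunc-16 both libraries lay below those of R9Q, while R9QG265R had 1 library within a rounding step of R9Q and 1 below it. The 3 libraries that stand apart were the 3 lowest of the 10. Its log2 fold change was -0.28 (SE 0.27) in R9QT102I, -0.25 (0.27) in R9QG265R and -0.32 (0.27) in R9Qunc-16, each against R9Q, and -0.03 (0.26) in R9Q against WT.

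unc-63, another alpha-type subunit shared by both receptors (WBGene00006797, chromosome I, 5141673 to 5149226), was at 30.9 and 56.3 CPM in R9QT102I, 61.5 and 19.6 in R9QG265R, 77.1 and 30.6 in R9Qunc-16, 52.9 and 59.0 in R9Q, and 46.6 and 55.3 in WT. In each double mutant the lower value belonged to the library that stands apart, and R9Q and WT overlapped. For unc-63 the log2 fold change in R9Qunc-16 against R9Q was -0.06 over all libraries (SE 0.60, adjusted p = 0.975 by edgeR's quasi-likelihood test). Without the 3 libraries that stand apart it was 0.496 (adjusted p = 0.000289).

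acr-12, a subunit of motor neuron receptors (WBGene00000051, chromosome X, 13532853 to 13536459), was read on the 610 bases that are not shared by its 2 transcripts. It was at 4.24 and 2.27 CPM in R9QT102I, 6.55 and 4.35 in R9QG265R, 16.5 and 5.34 in R9Qunc-16, 7.03 and 5.79 in R9Q, and 7.28 and 6.04 in WT. Both R9QT102I libraries were below both of R9Q, and R9Qunc-16 replicate 1 was the highest of all. The log2 fold changes were -0.98 (SE 0.60) in R9QT102I and 0.77 (0.58) in R9Qunc-16, with adjusted p = 0.647 and 0.534 by edgeR's quasi-likelihood test. acr-2 and acr-3, which lie side by side on chromosome X and code for subunits of the same motor neuron receptor, averaged 34.0 and 7.64 CPM over the 10 libraries. acr-6, listed with them, averaged 5.2 CPM.

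The ACR-16 group holds alpha-type nicotinic subunits, among them those that form receptors from a single kind of subunit. None of its 8 described members was called, and 5, 5, 6 and 4 of them lay below 0 in R9QT102I, R9QG265R and R9Qunc-16 against R9Q and in R9Q against WT. acr-16, the muscle receptor opened by nicotine (WBGene00000055, chromosome V, 8561216 to 8564345), was at 20.3 and 39.7 CPM in R9QT102I, 32.4 and 21.9 in R9QG265R, 30 and 29.8 in R9Qunc-16, 35.6 and 45.7 in R9Q, and 36.3 and 33.5 in WT. Both libraries of R9QG265R and of R9Qunc-16 were below both R9Q libraries, R9Q overlapped WT, and the 3 libraries that stand apart were the 3 lowest of the 10. The log2 fold change was -0.44 (SE 0.36) in R9QT102I, -0.58 (0.36) in R9QG265R and -0.44 (0.36) in R9Qunc-16, with adjusted p = 0.765, 0.718 and 0.564 by edgeR's quasi-likelihood test. Its neighbour acr-15 (chromosome V, 8552695 to 8555383) was at 25.2 ± 3.14 CPM in R9QT102I, 34.0 ± 13.8 in R9QG265R, 20.9 ± 5.96 in R9Qunc-16, 27.6 ± 1.56 in R9Q and 24.1 ± 2.1 in WT (SD, n = 2 each).

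acr-25 (WBGene00043066, chromosome IV, 6464305 to 6468479) had the largest difference between R9Q and WT in this group. It was at 15.9 and 37.3 CPM in R9QT102I, 16.9 and 13.2 in R9QG265R, 13 and 17.5 in R9Qunc-16, 24.3 and 24.3 in R9Q, and 46.1 and 44.5 in WT. Every library with R9Q was below both WT libraries, and those of R9QG265R and R9Qunc-16 were also below both of R9Q. The log2 fold change in R9Q against WT was -0.90 (SE 0.40, adjusted p = 0.679 by edgeR's quasi-likelihood test over 10 libraries).

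acr-10 was at 7.49 ± 1.04 CPM in R9QT102I, 14.8 ± 7.6 in R9QG265R, 13.8 ± 10 in R9Qunc-16, 10.9 ± 0.321 in R9Q and 10.6 ± 0.0557 in WT. Its libraries differed more within R9QG265R (20.1 and 9.38) and R9Qunc-16 (20.8 and 6.68) than R9Q differed from WT. acr-9 was at 9.38 ± 1.83, 8.14 ± 2.27, 8.65 ± 3.36, 11.3 ± 3.55 and 8.56 ± 3.77 CPM in the same order of strains, a spread within which no strain stood out. acr-11, acr-7 and acr-14 averaged 15.3, 12.3 and 7.69 CPM over all libraries.

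Of the DEG-3 group of nicotinic subunits, acr-5, acr-18 and acr-24 were described. acr-5, whose promoter is active in B-type motor neurons, was at 26.5 and 26.8 CPM in R9QT102I, 33.5 and 18.1 in R9QG265R, 35.8 and 12.4 in R9Qunc-16, 25.6 and 30 in R9Q, and 31.4 and 28.5 in WT. R9Qunc-16 and R9QG265R each had a library above R9Q and a library below it, the lower being the one that stands apart. For acr-5 the log2 fold change in R9Qunc-16 against R9Q was -0.21 (SE 0.49, adjusted p = 0.865 by edgeR's quasi-likelihood test), and without the 3 libraries that stand apart it was 0.4 (adjusted p = 0.029). acr-18 was at 20.4 ± 3.36 CPM in R9QT102I, 32.0 ± 9.96 in R9QG265R, 27 ± 5.34 in R9Qunc-16, 27.5 ± 0.485 in R9Q and 27.8 ± 1.62 in WT. acr-24, read on 482 bases, stayed at or under 2.2 CPM in all libraries.

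Among GABA receptor subunits, lgc-37 had strain means of 28.6 ± 8.81 CPM in R9QT102I, 17.8 ± 1.95 in R9Q and 29.2 ± 0.748 in WT (SD, n = 2 each). lgc-37, a GABA receptor subunit by sequence (WBGene00013914, chromosome III, 12785154 to 12793176), was at 34.9 and 22.4 CPM in R9QT102I, 15.7 and 17.1 in R9QG265R, 14.6 and 12.4 in R9Qunc-16, 16.4 and 19.2 in R9Q, and 29.7 and 28.7 in WT. Both R9QT102I libraries were above both of R9Q, and both R9Q libraries were below both of WT. Its log2 difference was 0.69 (SE 0.29) in R9QT102I against R9Q and -0.71 (0.29) in R9Q against WT. With adjusted p = 0.442 and 0.603 by edgeR's quasi-likelihood test, neither was called.

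exp-1, the excitatory GABA-gated channel of the enteric muscles that drives defecation (WBGene00001373, chromosome II, 6157144 to 6161094), was at 11.9 and 15.9 CPM in R9QT102I, 9.42 and 11 in R9QG265R, 14.9 and 16.7 in R9Qunc-16, 16.3 and 10.3 in R9Q, and 15 and 13.8 in WT. Every double mutant overlapped R9Q, and R9Q overlapped WT. lgc-35, a GABA-gated cation channel, lay between 5.61 and 12.6 CPM in all libraries, and lgc-36 between 0.801 and 3.83 CPM.

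lgc-38, a GABA receptor subunit by sequence, was read on only 83 of its exon bases. It was at 0.157 and 0.993 CPM in R9QT102I, 0.479 and 0 in R9QG265R, 1.07 and 0 in R9Qunc-16, 2.64 and 2.19 in R9Q, and 2.58 and 2.63 in WT. All 6 double mutant libraries were below the 4 libraries of R9Q and WT, and those that stand apart were the lowest of their strains. The R9QG265R libraries held 3 counts and the R9Q libraries 35, a ratio of 0.102 with a 95% counting interval of 0.0201 to 0.325 that leaves out the spread between libraries. With an adjusted p of 0.614 in edgeR's quasi-likelihood test this difference was not called.

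The 3 genes listed as amine-gated were all counted. lgc-39 and lgc-40, whose channels open to amines and to acetylcholine, are listed with the other lgc genes. lgc-55, the tyramine-gated chloride channel of the escape response (WBGene00013746, chromosome V, 20023046 to 20036657), was at 67.1 and 54.3 CPM in R9QT102I, 77 and 57.9 in R9QG265R, 57.4 and 50.2 in R9Qunc-16, 90.6 and 87.1 in R9Q, and 74.2 and 76.1 in WT. R9Q had the highest pair of libraries, above WT and above all 6 double mutant libraries. Its values against R9Q were -0.55 (SE 0.22) on the log2 scale in R9QT102I, -0.40 (0.22) in R9QG265R and -0.72 (0.22) in R9Qunc-16, and the log2 fold change was 0.24 (0.22) in R9Q against WT. Adjusted p-values from edgeR's quasi-likelihood test were 0.395, 0.671, 0.141 and 0.987. The first 3 comparisons share the same R9Q libraries and are not separate evidence of a high R9Q level.

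lgc-50, the serotonin-gated cation channel (WBGene00020605, chromosome III, 7391090 to 7395454), was at 110 and 130 CPM in R9QT102I, 115 and 110 in R9QG265R, 147 and 90.0 in R9Qunc-16, 125 and 121 in R9Q, and 156 and 159 in WT. All 8 libraries with R9Q were below both WT libraries, and the 3 lowest were those that stand apart. Against R9Q, R9Qunc-16 was at -0.05 (SE 0.25, adjusted p = 0.939 by edgeR's quasi-likelihood test) with all libraries and at 0.295 (adjusted p = 0.00145) without those 3. In R9Q against WT its log2 fold change was -0.36 (SE 0.25, adjusted p = 0.914 by edgeR's quasi-likelihood test). lgc-53, the dopamine-gated channel, was counted on 508 bases and stayed between 0.668 and 4.86 CPM.

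The lgc genes outside these roles are a mixed group, in which many members have no transmitter assigned. None of the 34 described was called, and 22, 22, 25 and 21 of them lay below 0 in R9QT102I, R9QG265R and R9Qunc-16 against R9Q and in R9Q against WT, with medians of -0.05, -0.13, -0.48 and -0.18. lgc-39 (WBGene00017314, chromosome V, 7175501 to 7178795), the most abundant subunit, was at 166 and 145 CPM in R9QT102I, 135 and 218 in R9QG265R, 124 and 105 in R9Qunc-16, 157 and 159 in R9Q, and 212 and 197 in WT. Both libraries of R9Q, of R9QT102I and of R9Qunc-16 were below both WT libraries, as was R9QG265R replicate 1. R9QG265R replicate 2, which stands apart, was the highest of all. The log2 fold change in R9QG265R against R9Q was 0.16 (SE 0.25, adjusted p = 0.918 by edgeR's quasi-likelihood test) and without the 3 libraries that stand apart -0.242 (adjusted p = 0.012).

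lgc-46, the presynaptic acetylcholine-gated anion channel (WBGene00022106, chromosome III, 1125230 to 1136025), was at 105 and 84.7 CPM in R9QT102I, 62.0 and 146 in R9QG265R, 81.2 and 68.0 in R9Qunc-16, 130 and 115 in R9Q, and 136 and 138 in WT. R9QT102I and R9Qunc-16 were below R9Q, R9Q was below WT, and R9QG265R spanned them all. lgc-11 was at 38.4 ± 10.3 CPM in R9QT102I, 44.6 ± 12.2 in R9QG265R, 34.9 ± 8.12 in R9Qunc-16, 61.2 ± 1.64 in R9Q and 72.7 ± 10.4 in WT. Its 3 double mutant pairs lay below both R9Q libraries, which lay below both WT libraries.

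A few other abundant lgc members, beyond those picked by the criteria for description by name, are given because of their values. lgc-40 (chromosome X, 2360097 to 2364821) was at 111 and 95.2 CPM in R9QT102I, 79.7 and 96.4 in R9QG265R, 73.2 and 66.8 in R9Qunc-16, 109 and 99.0 in R9Q, and 126 and 118 in WT. Its R9QG265R and R9Qunc-16 libraries were below both R9Q libraries, and all libraries with R9Q were below WT. lgc-4 was at 82.4 and 79.0 CPM in R9QT102I, 58.9 and 57.9 in R9QG265R, 47.6 and 35 in R9Qunc-16, 56.1 and 60.8 in R9Q, and 75.1 and 75.3 in WT, so that the R9QT102I pair was the highest and the R9Qunc-16 pair the lowest. lgc-57 was at 56.1 and 53.5 CPM in R9QT102I, 52.6 and 49.4 in R9QG265R, 26.8 and 32.6 in R9Qunc-16, 45 and 43 in R9Q, and 50.5 and 52.5 in WT. Only the R9Qunc-16 libraries of lgc-57 were below both R9Q libraries. The R9Qunc-16 differences from R9Q were -0.57 (SE 0.19), -0.50 (0.20) and -0.56 (0.19) on the log2 scale for lgc-40, lgc-4 and lgc-57, and edgeR's quasi-likelihood test gave adjusted p = 0.169, 0.239 and 0.179. lgc-44 was at 19.3 and 57.0 CPM in R9QT102I, 48.1 and 15.7 in R9QG265R, 40.1 and 24.3 in R9Qunc-16, 26.9 and 28 in R9Q, and 38.7 and 46.3 in WT. In each double mutant the library that stands apart was below R9Q and the other above it.

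**Figure D3:**
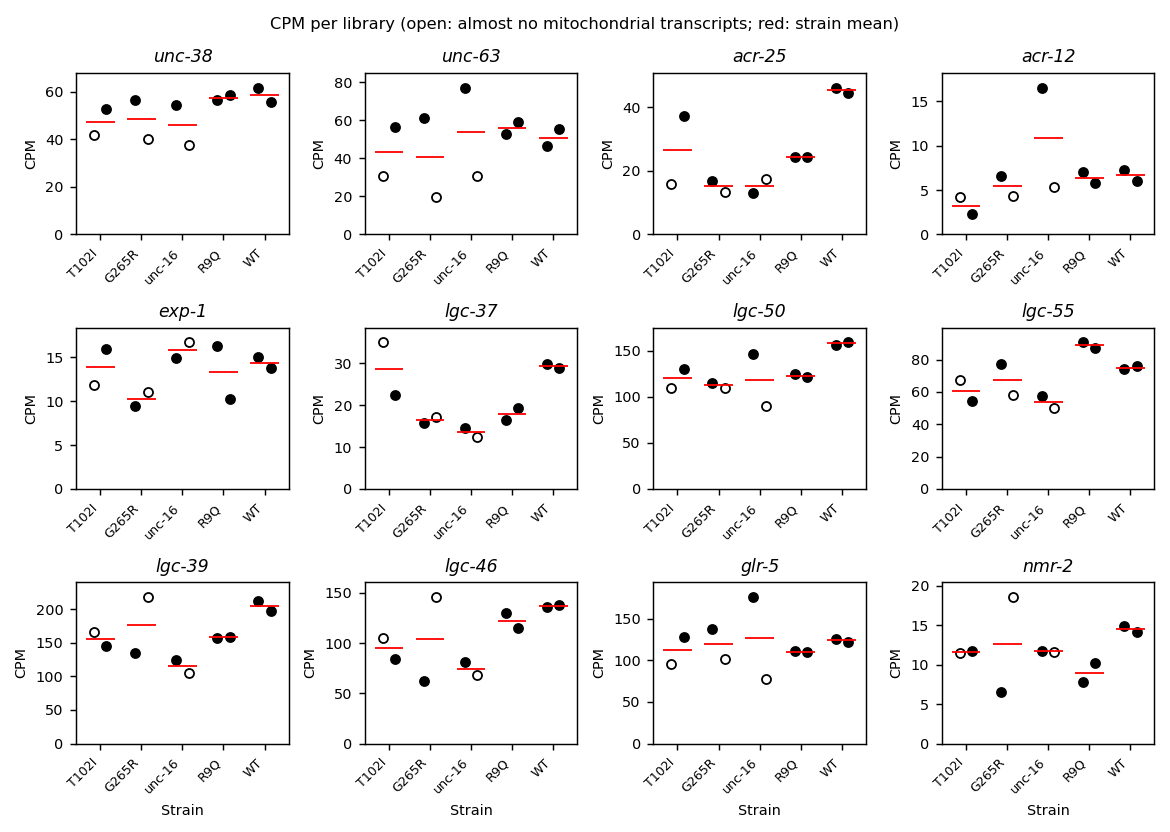
CPM of 12 subunit genes in each library by strain (T102I, G265R and unc-16 stand for R9QT102I, R9QG265R and R9Qunc-16), with the strain mean as a red line and the libraries that stand apart as open circles. acr-25 and lgc-50 are highest in WT, lgc-55 is highest in R9Q, and the 2 libraries of a double mutant often differ more than the strains do.

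lgc-56 (WBGene00001588, chromosome II, 5130381 to 5133472) had the lowest adjusted p of any member in any comparison. It was at 38.8 and 50.8 CPM in R9QT102I, 59.4 and 37.8 in R9QG265R, 32.0 and 29.1 in R9Qunc-16, 66.9 and 57.2 in R9Q, and 54.1 and 54.1 in WT. R9Qunc-16 had the lowest pair of libraries, close to each other although 1 of them stands apart. In R9Qunc-16 against R9Q the log2 fold change was -1.02 (SE 0.27, adjusted p = 0.114 by edgeR's quasi-likelihood test), and the gene was not called. It was called with the DESeq2 Wald test (-0.955, adjusted p = 0.0363), with a term for the 3 libraries that stand apart (-0.821, adjusted p = 0.0371) and without these libraries (-0.914, adjusted p = 1.17e-07).

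lgc-32 (WBGene00020569, chromosome X, 672107 to 676484) was at 13.8 and 24.8 CPM in R9QT102I, 10.9 and 5.36 in R9QG265R, 12.6 and 14.6 in R9Qunc-16, 8.93 and 8.87 in R9Q, and 14.7 and 16.9 in WT. Both libraries of R9QT102I, of R9Qunc-16 and of WT were above both R9Q libraries. Its log2 difference was 1.12 (SE 0.43) in R9QT102I and 0.61 (0.43) in R9Qunc-16 against R9Q, and -0.83 (0.43) in R9Q against WT. Adjusted p-values by edgeR's quasi-likelihood test were 0.386, 0.503 and 0.78. Of its exon bases, 5.5% are shared with a gene on the opposite strand.

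lgc-28 was at 10.7 and 11.2 CPM in R9QT102I, 14.1 and 12.1 in R9QG265R, 16.1 and 14.7 in R9Qunc-16, 9.52 and 10.7 in R9Q, and 9.71 and 9.14 in WT. Its R9Qunc-16 pair was the highest, with a log2 fold change of 0.61 (SE 0.28, adjusted p = 0.296 by edgeR's quasi-likelihood test) against R9Q. lgc-49 was at 19.8 ± 8.69 CPM in R9QT102I, 22.4 ± 8.73 in R9QG265R, 13.9 ± 3.67 in R9Qunc-16, 25.8 ± 4.13 in R9Q and 20.6 ± 1.51 in WT (SD, n = 2 each). Both R9Qunc-16 libraries of lgc-49, at 16.5 and 11.4 CPM, were below both R9Q and both WT libraries. lgc-41, counted on 101 bases, lay between 1.67 and 9.34 CPM, and its 3 lowest libraries were those that stand apart. Only 9 of these 101 bases lie clear of a gene on the opposite strand, so its counts may be reads of that gene.

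The cluster of lgc-13 to lgc-18 on chromosome X (12109166 to 12128000) held 6 subunit genes close together, at low levels. lgc-13 averaged 4.38 ± 2.64 CPM in R9QT102I, 5.99 ± 3.5 in R9QG265R, 2.73 ± 0.466 in R9Qunc-16, 6.54 ± 0.696 in R9Q and 6.99 ± 1.73 in WT, with a log2 fold change of -1.25 (SE 0.59) in R9Qunc-16 against R9Q. lgc-16 had 1 count in the R9Qunc-16 libraries together and 25 in those of R9Q, a ratio of 0.0417 with a 95% counting interval of 0.00102 to 0.255. Its level was 1.1 and 1.28 CPM in R9QT102I, 0.32 and 2.34 in R9QG265R, 0 and 0.134 in R9Qunc-16, 1.46 and 1.93 in R9Q, and 0.455 and 0.93 in WT. Both R9Qunc-16 libraries were the lowest of the 10 and under the floor of 3 counts, and the adjusted p of 0.145 from edgeR's quasi-likelihood test did not call the gene. lgc-6, on chromosome IV next to lgc-5, was at 2.47 ± 1.72 CPM in R9QT102I, 3.88 ± 2.41 in R9QG265R, 2.42 ± 0.17 in R9Qunc-16, 4.04 ± 1.57 in R9Q and 5.21 ± 0.571 in WT.

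None of the 5 described AMPA/kainate-type glutamate receptor subunits was called in any comparison. glr-5, the most abundant (WBGene00001616, chromosome V, 8716495 to 8720516), was at 95.8 and 128 CPM in R9QT102I, 137 and 101 in R9QG265R, 176 and 77.1 in R9Qunc-16, 111 and 110 in R9Q, and 126 and 122 in WT. The lower library of each double mutant was the one that stands apart, and each double mutant had a library on either side of R9Q. glr-1 (WBGene00001612, chromosome III, 8584163 to 8588642) was at 50 ± 10.9 CPM in R9QT102I, 52.4 ± 1.4 in R9QG265R, 48.5 ± 16.4 in R9Qunc-16, 52.2 ± 1.78 in R9Q and 56.4 ± 1.94 in WT. Its log2 fold change was -0.06 (SE 0.27), 0.01 (0.27) and -0.11 (0.27) in R9QT102I, R9QG265R and R9Qunc-16 against R9Q, and -0.11 (0.27) in R9Q against WT.

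glr-6 averaged 45.3 CPM and glr-3, a kainate-type subunit that also acts as a cold receptor, 14.3 CPM over all libraries. glr-4 was read on 45 bases of its own and lay between 0.628 and 4.68 CPM. nmr-2, the NMDA-type subunit that could be counted (WBGene00003775, chromosome V, 15006341 to 15011660), was at 11.5 and 11.8 CPM in R9QT102I, 6.55 and 18.6 in R9QG265R, 11.8 and 11.6 in R9Qunc-16, 7.76 and 10.2 in R9Q, and 14.9 and 14.1 in WT. Both R9QT102I and both R9Qunc-16 libraries were above R9Q and below WT. The log2 fold change in R9Q against WT was -0.69 (SE 0.47, adjusted p = 0.911 by edgeR's quasi-likelihood test).

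The comparison of R9Q with WT turned on which libraries set the spread. The median biological coefficient of variation of the members was 0.0818 in R9Q and WT together, 0.482 in the 3 double mutants and 0.344 over all 10 libraries. Fitted on the 4 libraries of R9Q and WT alone, edgeR's quasi-likelihood test called 15 of 62 subunit genes, 14 lower and 1 higher in R9Q. In the same fit 37.7% of all 11031 genes were called, 20% lower and 17.7% higher. The members' share of calls was thus below that of all genes, and 14 of their 15 calls were in the lower direction. This fit rests on 2 libraries a strain.

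The genes lower in R9Q in the 4-library fit belonged to several roles. acr-25 fell by 0.89 on the log2 scale (SE 0.118, adjusted p = 5.06e-07 by edgeR's quasi-likelihood test on 4 libraries). lgc-37 fell by 0.70 (SE 0.144, adjusted p = 0.000266), nmr-2 by 0.67 (SE 0.204, adjusted p = 0.0098), and lgc-32 by 0.82 (SE 0.196, adjusted p = 0.00139) in the same test. lgc-39 fell by 0.36 (SE 0.0563, adjusted p = 5.74e-06), lgc-50 by 0.35 (SE 0.0611, adjusted p = 3.26e-05) and lgc-11 by 0.24 (SE 0.0935, adjusted p = 0.0429). The other 7, named because of these values, were acr-3, lgc-4, lgc-5, lgc-25, lgc-26, lgc-40 and lgc-44, with log2 fold changes between -1.08 and -0.23. lgc-55 was the one gene that rose, by 0.25 (SE 0.0773, adjusted p = 0.0113). The fit of all strains without the 3 libraries that stand apart called the same genes in R9Q against WT. It compares the same R9Q and WT libraries, so this is not separate evidence.

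Those 14 lower genes included 1 levamisole-type, 1 ACR-16 group, 1 GABA receptor, 1 gene listed as amine-gated (lgc-50), 1 NMDA-type subunit and 9 other lgc genes, lgc-39 and lgc-40 among them. None of the AMPA/kainate-type genes tested was called in that fit, nor were acr-5, acr-18 and acr-24. Counted by libraries that do not overlap, with no test, 24 of 65 members were lower in R9Q than in WT and 11 were higher, where 32.6% of all genes were lower and 31.8% higher.

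**Figure D4:**
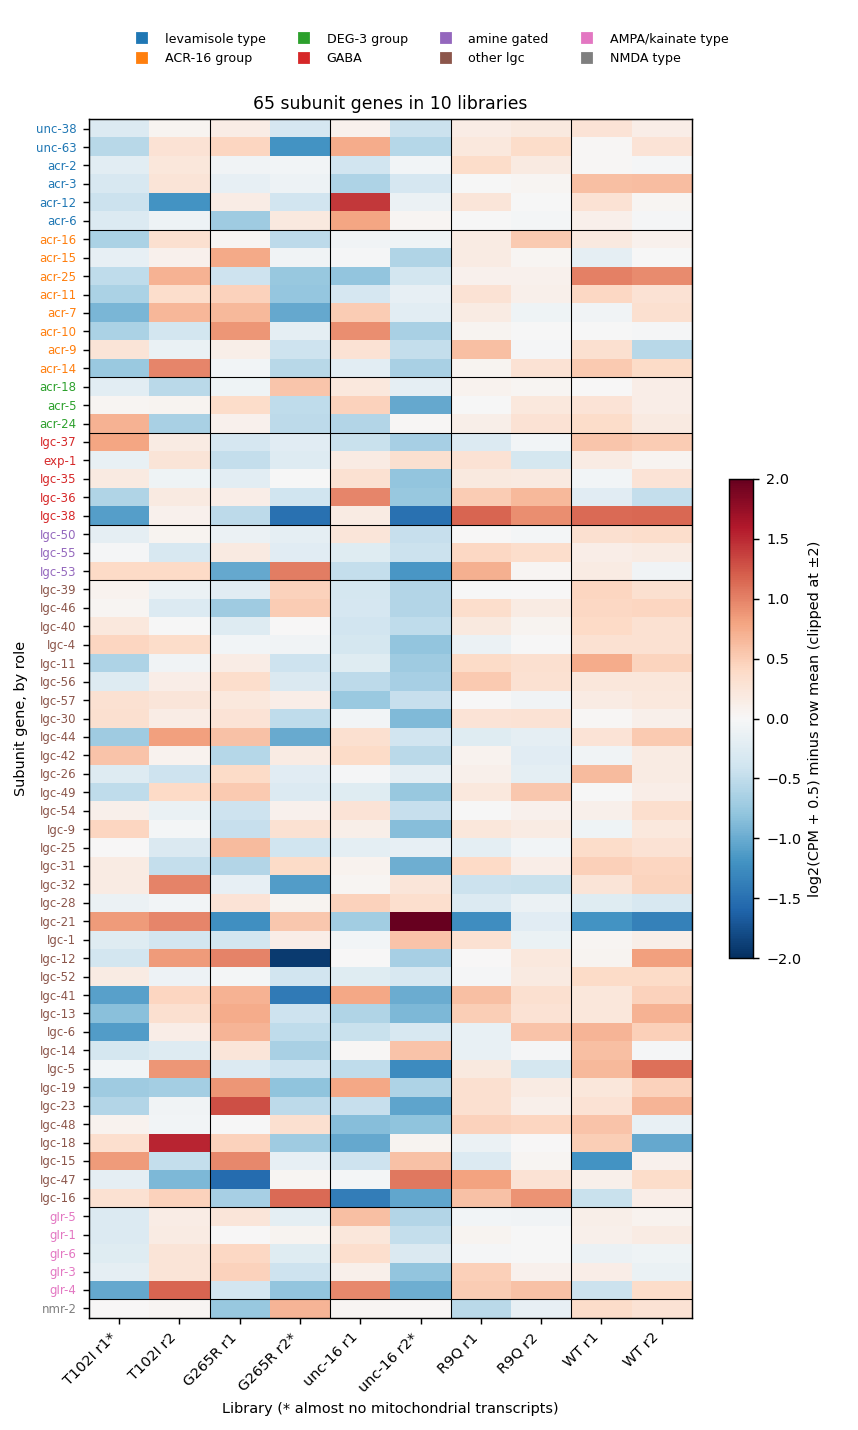
Level of each of the 65 described subunit genes in the 10 libraries, as log2(CPM + 0.5) minus the mean over libraries (colour, clipped at 2 either way), with genes grouped by role and the libraries that stand apart marked by an asterisk. The R9Q and WT columns are pale and alike within a strain, while the paired columns of a double mutant differ, and lgc-21 in R9Qunc-16 replicate 2 is at the upper end of the colour scale.

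In the double mutants the 2 libraries of a strain often disagreed about a subunit gene. A difference of more than 2-fold between the 2 libraries (after adding 0.5 CPM) was seen in 13 of 65 members in R9QT102I, 20 in R9QG265R and 16 in R9Qunc-16, against 1 in R9Q and 2 in WT. The shares of all genes tested were 18.8, 33.3, 35.8, 2.63 and 3.47% in the same order. R9Qunc-16 replicate 2 held the lowest value of 27 of the 65 members, and R9QG265R replicate 2 that of 12. The same count was not made over all genes tested, so whether it is particular to the members is not known. The summed level of the 65 members was 1570 and 1770 CPM in R9QT102I, 1720 and 1570 in R9QG265R, 1680 and 1250 in R9Qunc-16, 1810 and 1760 in R9Q, and 1990 and 1970 in WT. In each double mutant the lower sum belonged to the library that stands apart.

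The 3 libraries that stand apart shared low levels of a set of members that cut across roles. In 17 of 65 members (26.2%) all 3 lay below all of the other 7 libraries, and in 0 all 3 lay above them. Of all genes tested, 11.1% lay below and 6.71% above in this way. The 17 genes were named because of these values. They held 2 of the 6 described levamisole-type subunits, unc-38 and unc-63, 3 of the ACR-16 group (acr-7, acr-14 and acr-16), 4 of the 5 described AMPA/kainate-type genes (glr-3, glr-4, glr-5 and glr-6), lgc-38 of the GABA group, lgc-50 of the amine-gated group and 6 other lgc genes (lgc-11, lgc-12, lgc-23, lgc-41, lgc-44 and lgc-49). The part of these libraries' low mitochondrial content in the members' levels was not tested.

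Against R9Q, non-overlapping libraries were counted for each double mutant, with no test. In R9QT102I 9 members were higher and 19 lower than in R9Q, where 27.9% of all genes were higher and 26.9% lower. In R9QG265R 2 were higher and 18 lower, where 21.2 and 22.2% of all genes were. In R9Qunc-16 5 were higher and 32 lower, where 22.8 and 29.7% of all genes were. lgc-28 was higher in all 3 double mutants, and lgc-11, lgc-38, lgc-48 and lgc-55 were lower in all 3, which share their R9Q libraries. For lgc-28 in R9QT102I this was within a rounding step, with 10.7 CPM in R9QT102I replicate 1 and in R9Q replicate 2. The share of all genes alike in all 3 was not counted. lgc-48 was named because of these values. In a count added after the data were seen, without the libraries that stand apart, 1 library was left per double mutant, and 22, 23 and 23 members lay above both R9Q libraries and 31, 32 and 36 below them, in the order R9QT102I, R9QG265R and R9Qunc-16. The shares of all genes were then 44.1, 43.9 and 42.1% above and 41.6, 41.3 and 47.1% below.

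The fit without those libraries takes the single library of each double mutant to vary like those of R9Q and WT, and it called 36, 33.9 and 50.5% of all genes in the 3 comparisons with R9Q. Among the members it called, lgc-46 was lower than in R9Q, at -0.561 in R9QT102I, -0.997 in R9QG265R and -0.552 in R9Qunc-16 on the log2 scale (adjusted p = 1.82e-06, 1.07e-11 and 2.4e-06 by edgeR's quasi-likelihood test). The anion channel gene lgc-55 was called lower in R9QT102I (-0.742) and R9Qunc-16 (-0.591). lgc-44 was called higher in all 3, at 1.018 in R9QT102I, 0.786 in R9QG265R and 0.582 in R9Qunc-16. acr-12 was called in opposite directions, at -1.517 in R9QT102I and 1.409 in R9Qunc-16, and acr-25 likewise, at 0.585 in R9QT102I against -0.54 in R9QG265R and -0.862 in R9Qunc-16. glr-5 was called higher in R9QG265R (0.295) and R9Qunc-16 (0.715). These values rest on 1 library per double mutant, the 3 comparisons share the R9Q libraries, and in several of them the other library of the strain, which stands apart, lay on the opposite side of R9Q. That was so for lgc-46 in R9QG265R, lgc-44 in all 3, acr-25 in R9QT102I, acr-12 in R9Qunc-16, and glr-5 in R9QG265R and R9Qunc-16. The single R9QT102I library had 533 CPM of molting genes and 368 CPM of hypodermis genes, against 61.9 and 56.6 CPM and 4.39 and 3.47 CPM in R9Q. For the single R9QG265R library these sums were 40.9 and 3.83 CPM, and for that of R9Qunc-16 138 and 30.9 CPM. The part of these genes in the calls was not tested.

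lgc-21 stood far out in a single library. lgc-21 (WBGene00007903, chromosome X, 14064313 to 14067984) was at 10.4 and 11.3 CPM in R9QT102I, 2.08 and 8.2 in R9QG265R, 3.22 and 71.1 in R9Qunc-16, 2.05 and 4.63 in R9Q, and 2.12 and 1.86 in WT. R9Qunc-16 replicate 2 stood far above all others, and R9QT102I had both libraries above R9Q. Its log2 fold change was 1.69 (SE 1.20) in R9QT102I, 0.61 (1.20) in R9QG265R and 3.46 (1.27) in R9Qunc-16 against R9Q, and 0.75 (1.25) in R9Q against WT. None was called, with adjusted p = 0.72, 0.939, 0.196 and 1 by edgeR's quasi-likelihood test.

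The summed level of a list of molting genes was high where lgc-21 was high. The summed level of 10 molting genes, of which noah-1 and mlt-11 were at 0, was 491 and 533 CPM in R9QT102I, 40.9 and 454 in R9QG265R, 138 and 2030 in R9Qunc-16, 61.9 and 56.6 in R9Q, and 62.5 and 71.1 in WT. The 4 libraries with the highest molting sums were also the 4 with the highest lgc-21. noah-2, mlt-8, mlt-10 and qua-1 made up most of the sum. nas-36, on the same list, was at 4.55 and 12.8 CPM in R9QT102I, 7.51 and 4.35 in R9QG265R, 5.36 and 29.7 in R9Qunc-16, 14.1 and 17.1 in R9Q, and 13.8 and 15.3 in WT, so that it was high with lgc-21 in R9Qunc-16 replicate 2 but not in R9QT102I or R9QG265R. A summed level of 5 hypodermis genes, of which rol-6 was at 0, was 602 and 368 CPM in R9QT102I, 3.83 and 556 in R9QG265R, 30.9 and 2730 in R9Qunc-16, 4.39 and 3.47 in R9Q, and 1.97 and 2.79 in WT. The part of the molt in the level of lgc-21 was not tested. Leaving out R9Qunc-16 replicate 1 made the difference from R9Q pass the test (log2 fold change 4.44, adjusted p = 0.0345 by edgeR's quasi-likelihood test), with R9Qunc-16 replicate 2 as the sole library of its strain.

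**Figure D5:**
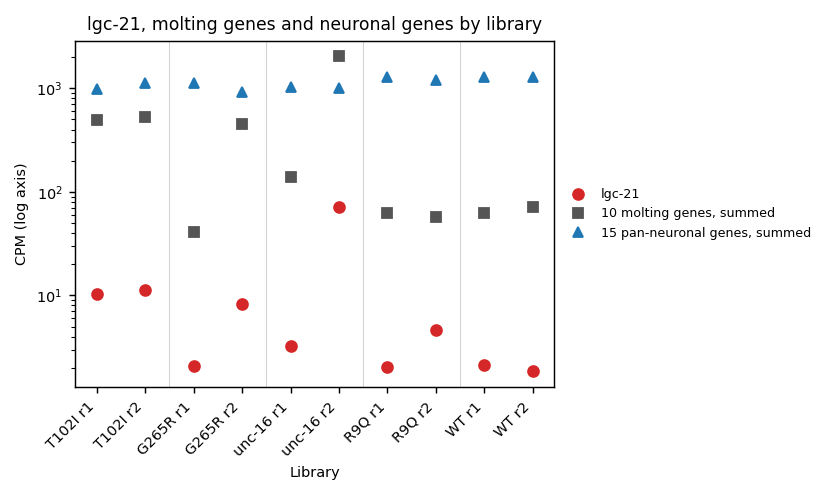
CPM (log axis) of lgc-21 (red circles), of 10 molting genes summed (grey squares) and of 15 pan-neuronal genes summed (blue triangles) in each of the 10 libraries (r1 and r2 are the replicates). lgc-21 and the molting sum are both highest in R9Qunc-16 replicate 2, at 71.1 and 2030 CPM. The pan-neuronal sum stays between 928 and 1300 CPM, of which snb-1 alone gives 455 to 940 CPM. The tested genes of this list do not move together. unc-64, rgef-1, snt-1, ehs-1 and maco-1 are lower in each library that stands apart than in the other library of its strain. ric-4 is higher in each of them, and snb-1 and ric-19 go both ways.

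Genes that work with these receptors gave 0 calls as well. Of 23 symbols listed as channel subunits outside the naming rule, 20 were found in the annotation and 12 were tested. Of 24 genes for receptor assembly, trafficking and clustering 16 were tested, and of 13 genes for transmitter synthesis, loading and removal 8. None was called in any of the 4 comparisons. The symbols ggr-1, ggr-2 and ggr-3 were not found, and whether the annotation carries them under symbols of the rule was not settled. glc-4, a glutamate-gated chloride channel subunit, was at 114 and 141 CPM in R9QT102I, 111 and 96.9 in R9QG265R, 116 and 101 in R9Qunc-16, 143 and 137 in R9Q, and 183 and 182 in WT. All 8 libraries with R9Q were below WT, with a log2 fold change of -0.38 (SE 0.19) in R9Q against WT. glc-2, another subunit of such channels, had a log2 fold change of -0.49 (SE 0.22) in R9Q against WT.

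Among the assembly genes, rpy-1, the worm rapsyn homologue, and frm-3, a FERM-domain protein that takes part in GABA receptor clustering, had log2 fold changes of -0.30 (SE 0.23) and 0.28 (SE 0.38) in R9Q against WT. All 8 tested transmitter genes lay below 0 in R9Q against WT, with a median of -0.43, and all 8 in R9Qunc-16 against R9Q, with a median of -0.71. Over all genes tested, 49.7 and 52.4% lay below 0. Their lowest adjusted p was 0.296 and 0.111 by edgeR's quasi-likelihood test, and both comparisons use the R9Q libraries. In R9QT102I and R9QG265R against R9Q, 3 and 7 of the 8 transmitter genes lay below 0. ace-2, an acetylcholinesterase gene, was at 267 and 269 CPM in R9QT102I, 182 and 231 in R9QG265R, 233 and 232 in R9Qunc-16, 249 and 253 in R9Q, and 370 and 381 in WT. All libraries with R9Q were below both WT libraries, with a log2 fold change of -0.58 (SE 0.19, adjusted p = 0.433 by edgeR's quasi-likelihood test) in R9Q against WT. snf-11, the plasma membrane GABA transporter, had a log2 fold change of -0.19 (SE 0.28) in R9Q against WT and -0.79 (SE 0.29) in R9Qunc-16 against R9Q.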

How the data were processed

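RNA-seq libraries of whole animals (total RNA extracted with TRIzol, KAPA RNA HyperPrep libraries) of 5 strains were used, 2 per strain. The authors deposited raw counts per transcript; per the submitters' processing notes, the tools were Trim Galore 0.4.4, STAR 2.5.4b and HTSeq 0.9.1, with the genome ce11. The strand setting was not given in the sources used here, so reads of a gene and of an antisense gene over it cannot be told apart. Among described members, 8 share 5% or more of their exon bases with an antisense gene, at most 10.6%.

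Of 61451 transcripts, 56781 matched the WBcel235 annotation by identifier and 4581 by sequence name, and 89 did not match (0.0486% of counts). The 5 summary entries were left out: HTSeq called 57.7 to 61.8% of aligned reads ambiguous and assigned 33.5 to 38.5%, and 49.7 to 49.9% of all reads were unaligned. Counts were summed per gene. Exon bases in 1 transcript only were computed from the annotation, which lacked exons for some transcripts of 8 members.

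All 10 libraries were fitted in R 4.3.3 with edgeR 4.0.16 (filterByExpr with a minimum count of 10, TMM factors of 0.900 to 1.095, glmQLFit and glmQLFTest, 5 residual degrees of freedom). Benjamini-Hochberg adjustment ran over the 12267 genes tested of a comparison with a threshold of 0.05. Standard errors come from the fold change and the F statistic of the test, and understate the error of genes with low counts. The procedure was tested on simulated data in which all strains had the same spread and only R9Q held changes. That test does not show the power or error at the unequal spread of these libraries. The strains here differed in spread, while the fit of all 10 libraries uses a common estimate for all of them. Alternatives were DESeq2 1.42.0 size factors and Wald test, other count filters, the 4 libraries of a comparison, a replicate block, a term for the 3 libraries that stand apart, the fit without them, and leaving out each library.

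The members and lists were chosen with earlier results of these data known. Described by name are the genes spelled out in the rule, called genes, the 3 largest changes each way per comparison (mean count of at least 20), and per role the 2 genes with the most counts and the one with the largest ratio between strain means. Of each partner list, the 2 genes with the most counts are named. The symbol acr-22 was not found in the annotation used, and whether it is carried there under another symbol was not settled.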

Additional observations from a re-analysis of the deposited data

How the results depend on the processing

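With 2 libraries a strain and 5 residual degrees of freedom, the median standard error of a member was 0.43 to 0.44 on the log2 scale, and changes of that size could not be detected in the 10-library fit.

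Counts are given in the order R9QT102I against R9Q, R9QG265R against R9Q, R9Qunc-16 against R9Q, and R9Q against WT. The DESeq2 Wald test called 455, 229, 1129 and 252 genes and 0, 0, 2 and 0 members (lgc-21 and lgc-56). With no count filter 795, 460, 1263 and 322 genes and 0, 0, 1 and 0 members (lgc-21) were called. With at least 5 CPM in at least 4 libraries the counts were 99, 0, 136 and 58 genes and 0 members. The 4 libraries of a comparison gave 820, 0, 0 and 4158 genes and 0, 0, 0 and 15 members. A term for the 3 libraries that stand apart gave 493, 126, 1531 and 225 genes and 0, 0, 2 and 0 members (lgc-16 and lgc-56). Without these libraries 4676, 4399, 6561 and 4224 genes and 17, 19, 27 and 15 members were called, where the lone library of each double mutant is assumed to vary like those of R9Q and WT. In this fit 4 members were called with the opposite sign: lgc-39 in R9QG265R (-0.242), and acr-5 (0.4), lgc-50 (0.295) and unc-63 (0.496) in R9Qunc-16. DESeq2 size factors moved no count of genes by 1.5 times. The causes were not tested.

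Whether replicate numbers pair the libraries was not settled. Same-numbered libraries of R9Q and the strain compared with it had correlations of -0.029 to 0.025. The libraries of R9Q and of WT hardly differed (median 1.11-fold over all genes in each), so these values could hardly show a pairing. Between double mutants the correlations were -0.636 (R9QT102I and R9QG265R), -0.455 (R9QT102I and R9Qunc-16) and 0.605 (R9QG265R and R9Qunc-16). The replicate block gave 24, 0, 18 and 3 genes.

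Leaving out each library in turn gave 0 to 266, 0 to 13, 0 to 681 and 0 to 97 genes called, and 0 members except in R9Qunc-16 (0 to 1, lgc-21 without R9Qunc-16 replicate 1). For the 33 tested members named by rule, 2165 of 2351 alternative values kept their direction and stayed uncalled, 52 became called in the same direction, and 130 uncalled values changed sign.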
